A study of Oryza sativa Japonica Group with 96 samples.

Results

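Rice stem bases of the inducible line DXC were compared one day after induction of CRL1 (24 h) and just before it (0 h), on 6 of the 96 arrays of the study. DXC at 24 h and DXC at 0 h had 3 arrays each, as had DX at 24 h and DX at 0 h, the empty-vector line sampled at the same hours. The plants of both lines are crl1 mutants (cv Taichung 65), and they carry pINDEX2 with the CRL1 gene under dexamethasone control (DXC, a single line, DXC3 of an earlier study) or the empty vector (DX). Plantlets of both received 1 µM dexamethasone at 0 h, and a change of medium took it away after 5 h, so the 24 h samples had been without inducer for most of a day. With 14 h of daylight a day, 24 h and 0 h fall at the same hour of the day. The arrays were chosen by line, hour and experiment number alone, and all 36643 features of the table were used. Seedlings had spent 5 days in dishes and 24 h in flasks before 0 h. Each array pooled several stem bases, and equal numbers mark 1 of 3 independent experiments. In pooled stem bases, fewer cells of a type and less RNA per cell cannot be told apart.

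CRL1 encodes a transcription factor of the LATERAL ORGAN BOUNDARIES DOMAIN family. It is switched on by auxin in the stem base and is needed there for the first divisions that give crown root primordia, the shoot-borne roots that make up most of a rice root system. Plants lacking it form almost no crown roots, so an inducible copy lets the steps that follow CRL1 be timed. No feature could be assigned to CRL1 from the tables at hand, so the level of the induced gene itself was not analysed here.

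The 3 arrays of DXC at 24 h were not alike. Those of experiments 1 and 2 had a narrower spread than the arrays at 0 h, and that of experiment 3 did not. The SD over all features was 1.52, 1.43 and 1.63 log2 units in DXC at 24 h (experiments 1 to 3), against 1.63, 1.65 and 1.65 in DXC at 0 h. At 24 h the arrays of experiments 1 and 2 correlated by 0.974, while that of experiment 3 correlated by 0.937 with the first and 0.908 with the second. In the 9161 features with the highest mean level, the median difference between 24 h and 0 h was -0.35, -0.58 and -0.05 log2 units in DXC (experiments 1 to 3), against -0.11, -0.03 and 0.00 in DX. The highly expressed features were thus lower at 24 h in experiments 1 and 2 and nearly level in experiment 3. In the 9161 features with the lowest mean level the median difference in DXC was 0.05, 0.13 and -0.01. Array spread moved in sets of 4 consecutive samplings in DXC, and 0 h and 24 h lie in different sets, so that the set and the day cannot be told apart. Of 78 named genes called in DXC, 12 were not called without the 24 h array of experiment 3 and 49 were not called with no block. The 12 are LOC4330584, LOC4332560, LOC4330827, LOC9268927, HK1, OsPM19L1, CBL4, OsC3H2, hox14, GH3.1, Hox13 and OsSUS4, all of them higher at 24 h.

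**Figure D1:**
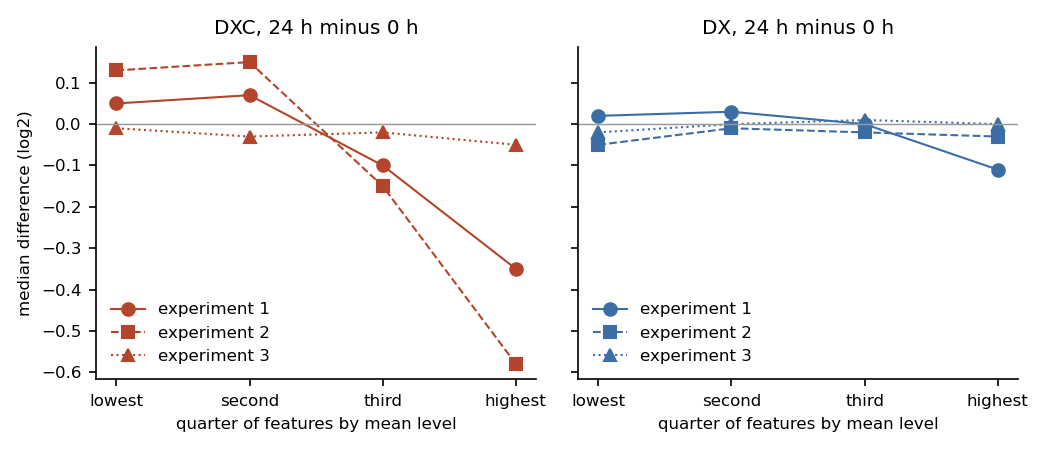
Median difference between 24 h and 0 h (log2, vertical axis) in 4 equal bins of all features ordered by mean level (horizontal axis), in DXC (left) and DX (right), 1 line per experiment. In DXC the highest bin lay at -0.35 and -0.58 in experiments 1 and 2 and at -0.05 in experiment 3, and in DX it stayed between -0.11 and 0.00.

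One day after the pulse, most of the features called in DXC in the main fit were lower than at the starting point. Of 36643 features, 1641 were called (4.48%, limma with a block for the experiment, Benjamini-Hochberg adjusted p under 0.05), 260 higher (0.71%) and 1381 lower (3.77%), and 44 of the higher and 314 of the lower differed at least 2-fold. In the same fit with no block, 223 were called, 47 higher and 176 lower, and with only the arrays compared in the fit 0 were called by limma (5686 at an unadjusted p under 0.05). All 3 experiments had the same sign for 1608 of the 1641, or 98.0%, against 39.7% of all features. The 24 h and 0 h arrays did not overlap for 1427 of the 1641, against 20.2% of all features. Both shares are descriptions and no support for the calls, since the 1641 were selected by their difference on these same arrays. The count and its direction rested on the experiments in opposite ways. Leaving out experiment 1 gave 24 calls (12 higher, 12 lower) and leaving out experiment 2 gave 11 (7 higher, 4 lower). Without experiment 3, 8768 were made (3232 higher, 5536 lower). When its 24 h array alone was left out, 7957 were made (2765 higher, 5192 lower). When all arrays were brought to 1 distribution by quantile normalization, 531 were called, 197 higher and 334 lower.

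The same day in DX, the empty-vector line, gave no call (0% of features, limma), with 1253 features at an unadjusted p under 0.05 and a lowest adjusted p of 0.786. The difference between the 2 lines in the change over the day was called for 3 features (0.00819%), 1 higher (0.00273%) and 2 lower (0.00546%), with 2794 at an unadjusted p under 0.05. Most features called in DXC were thus not shown to have changed otherwise than in DX. The 1381 features called lower in DXC had a median of 5.71 at 24 h and 6.53 at 0 h in DXC, against 5.96 and 6.13 in DX, which is a description, since they were selected for their fall in DXC. At 0 h itself, 19 features were called between DXC and DX (0.0519%), 9 higher (0.0246%) and 10 lower (0.0273%) in DXC. At an unadjusted p under 0.05 by limma there were 6031, so the lines already differed before induction in more features than were called. The 1381 called lower differed from DX by a median of 0.39 at 0 h and -0.22 at 24 h, and the 260 called higher by -0.27 and 0.24. The 260 features called higher had medians of 4.99 at 24 h and 4.22 at 0 h in DXC, against 4.68 and 4.57 in DX. In another pair of hours one day apart, 45 h against 21 h in DXC, 0 features were called by limma (0%, 2831 at an unadjusted p under 0.05), and the features lower at 24 h had a median difference of -0.05.

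LOC9271993, a protein-coding gene with no other name in the tables, rose most among the called genes. It stood at 7.06, 6.56 and 8.83 log2 units in DXC at 24 h, against 3.96, 4.23 and 4.18 in DXC at 0 h. It was at 4.88, 4.34 and 4.46 in DX at 24 h, against 4.75, 4.06 and 4.81 in DX at 0 h. Every DXC array at 24 h lay above all other 9 arrays, with experiment 3 the highest. The difference in DXC was 10.3-fold (3.36 log2 units, SE 0.35, n = 3 experiments; limma, adjusted p = 1.79e-09) and remained called in each leave-one-out fit (adjusted p from 3.51e-05 to 2.64e-04). The difference between the lines was 3.34 (SE 0.50; adjusted p = 2.04e-04, but 0.199 without experiment 3 and 0.0145 without only its 24 h array). Its mean in DXC had been 9.99 at 6 h, and at 45 h it was still 6.53, against 4.06 in DX. The tables give LOC9271993 no function.

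**Figure D2:**
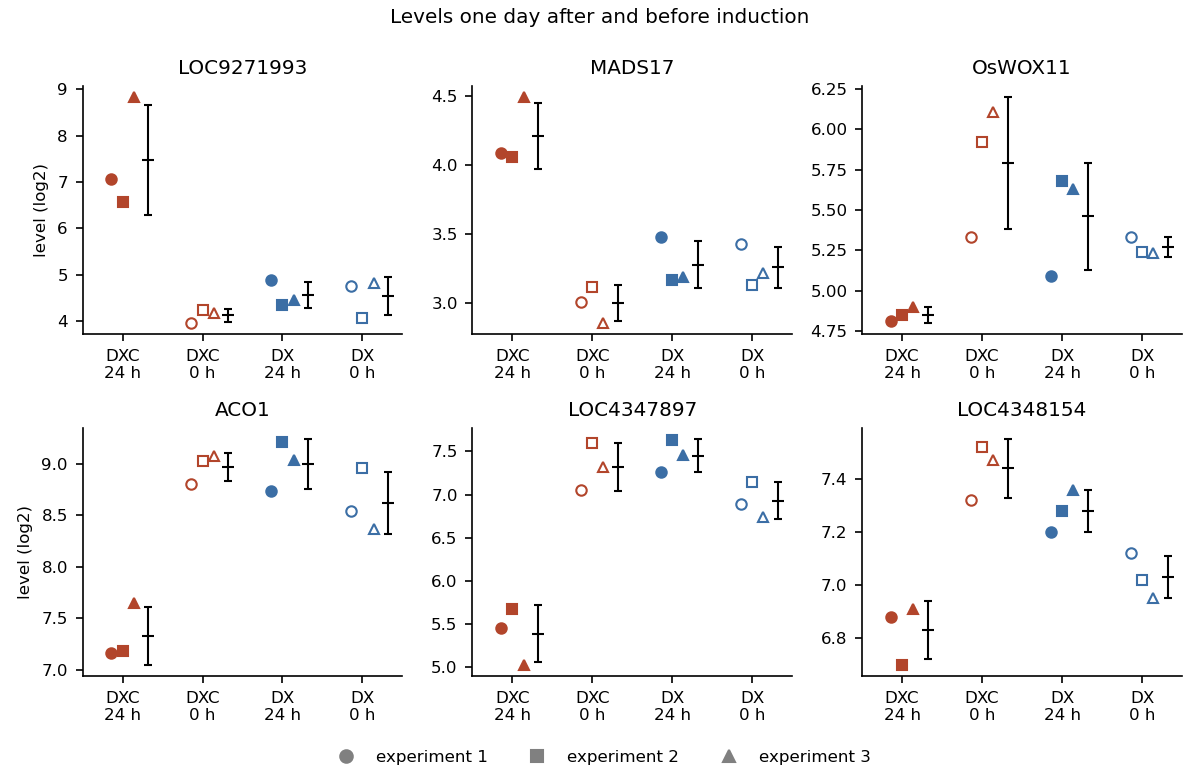
Level (log2, vertical axis) of 6 genes in DXC at 24 h, DXC at 0 h, DX at 24 h and DX at 0 h. Filled symbols are 24 h, open symbols 0 h, shapes mark the experiments, and black bars give the mean ± SD (n = 3). LOC9271993 and MADS17 were higher and OsWOX11, ACO1, LOC4347897 and LOC4348154 lower in DXC at 24 h than at 0 h on every array, while in DX the hours overlapped for the first 4 genes.

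LOC4350632 followed, a protein-coding gene with no name in the tables. It stood at 6.34, 5.77 and 7.01 in DXC at 24 h, against 4.31, 4.07 and 4.44 at 0 h, a rise of 4.29-fold (2.10 log2 units, SE 0.36; limma, adjusted p = 5.52e-04, but 0.0625 without experiment 2). Its levels in DX, 5.52, 4.77 and 4.57 at 24 h and 5.59, 3.94 and 3.69 at 0 h, overlapped between the hours, and the difference between the lines was not called (1.56, adjusted p = 0.528).

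LOC4330584 rested largely on experiment 3. It stood at 5.79, 5.30 and 8.35 in DXC at 24 h, against 4.83, 4.73 and 4.41 at 0 h (1.82 log2 units, SE 0.40; limma, adjusted p = 0.00811, but 0.0575 without the 24 h array of experiment 3 and from 0.0688 to 0.0943 with an experiment left out). Its mean in DXC was 9.77 at 9 h and 4.79 at 45 h, so that it had returned to its starting level by the end. LOC9268927, its direct neighbour in the gene order, differed by 1.33 (limma, adjusted p = 0.033), by -0.01 in experiment 1. It stood at 5.12, 5.84 and 7.66 in DXC at 24 h, against 5.13, 4.85 and 4.66 at 0 h. Without the 24 h array of experiment 3 the difference was 0.64 (adjusted p = 0.184), and it was not called with no block (adjusted p = 0.0664) or with any experiment left out (from 0.0965 to 0.398).

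Other leading genes without a name were LOC4351404, annotated as a transcribed pseudogene, which rose by 1.68, LOC4324857 by 1.61, LOC4332560 by 1.60, LOC4332309 by 1.56, LOC4340662 by 1.20 and LOC4330827 by 1.19 (limma, adjusted p from 0.00171 to 0.0445). At 24 h itself, 36 features differed between DXC and DX (0.0982%), 23 higher (0.0628%) and 13 lower (0.0355%) in DXC, among them LOC4351404 (1.56, adjusted p = 0.038) and LOC4340662 (1.59, adjusted p = 1.15e-05). At an unadjusted p under 0.05 there were 1066. LOC4324857 and LOC4330827 were not called at 24 h between the lines (adjusted p = 0.91 and 1), and at 0 h they differed from DX by -0.88 and -1.39, also without a call (adjusted p = 0.266 and 0.0939). Without the 24 h array of experiment 3, LOC4332560 was at 1.09 (adjusted p = 0.0509) and LOC4330827 at 0.84 (adjusted p = 0.103).

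Among genes with a name, MADS17 rose most. It encodes a MADS-box transcription factor, a class known above all from flower development. Its levels were 4.09, 4.06 and 4.49 in DXC at 24 h, against 3.01, 3.12 and 2.86 at 0 h, and 3.48, 3.17 and 3.19 in DX at 24 h, against 3.43, 3.13 and 3.22 at 0 h. The rise was 2.33-fold (1.22 log2 units, SE 0.19; limma, adjusted p = 8.19e-05, but 0.0549 without experiment 1), with no overlap between the hours in DXC and overlap in DX. DXC was above DX at 24 h by 0.93 (adjusted p = 0.0118), and the difference between the lines over the day was 1.19 (adjusted p = 0.146). By the hour, MADS17 in DXC was still at 3.01 at 6 h, reached 4.21 at 9 h and was at 3.93 at 45 h, a late and lasting change.

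CML15, which encodes a calmodulin-like calcium sensor, rose by 1.11, HK1, which encodes a histidine kinase also known as MHZ1, by 1.08, and CBL4, a calcineurin B-like calcium sensor gene, by 0.99 (limma, adjusted p from 0.0146 to 0.0223). HK1 stood at 4.73, 5.05 and 6.39 in DXC at 24 h, against 4.15, 4.45 and 4.34 at 0 h, and CBL4 at 4.27, 4.21 and 5.82 against 3.70, 3.60 and 4.04 at 0 h. For both genes the array of experiment 3 was the highest by more than 1 log2 unit, and without it they were at 0.66 and 0.54 (limma, adjusted p = 0.0819 and 0.0771). OsC3H2, a CCCH zinc finger gene, rose by 0.89 (adjusted p = 0.045), but was at 0.45 without that array (adjusted p = 0.216). By contrast OC-V, GER3 and the chitinase gene Cht7, which rose by 1.03, 1.00 and 0.83, had their smallest difference in experiment 3 (0.42, 0.31 and 0.42). With no block none of these 7 genes was called by limma (adjusted p from 0.0589 to 0.0982).

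PRX74 (LOC4339222), a class III peroxidase gene, fell most among the called genes. Class III peroxidases work in the cell wall and can loosen or stiffen it. PRX74 stood at 4.22, 4.44 and 5.25 in DXC at 24 h, against 6.71, 7.04 and 6.95 at 0 h, and at 5.53, 6.77 and 6.02 in DX at 24 h, against 6.09, 6.43 and 5.94 at 0 h. It was 4.79-fold lower (-2.26 log2 units, SE 0.34; limma, adjusted p = 6.70e-05, and 0.0581 without experiment 1), with every DXC array at 24 h below every other array. The difference between the lines was -2.22 (adjusted p = 0.121), and at 0 h PRX74 was 0.75 above DX without a call (adjusted p = 0.274).

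LOC4347897 was the called gene whose fall over the day differed most from DX. It stood at 5.46, 5.68 and 5.03 in DXC at 24 h, against 7.05, 7.60 and 7.32 at 0 h, while DX was at 7.26, 7.63 and 7.46 at 24 h, against 6.89, 7.15 and 6.74 at 0 h. It fell by 1.93 in DXC (SE 0.32; limma, adjusted p = 3.31e-04, and 0.0625 without experiment 2), and here experiment 3 had the largest fall, not the smallest. The difference between the lines was -2.45 (SE 0.45; adjusted p = 0.0154, but 0.0522 with no block, 0.075 without the 24 h array of experiment 3 and from 0.217 to 1 with an experiment left out). In DX its 24 h arrays lay above its 0 h arrays without a call. LOC4347898, with 1 gene between the pair in the gene order, fell by 1.75 (adjusted p = 0.0149), to 6.44, 6.51 and 6.68 at 24 h, against 8.30, 8.28 and 8.31 at 0 h. Neither gene was early: LOC4347897 averaged 6.85 at 9 h in DXC, 5.39 at 24 h and 5.07 at 45 h. Near-identical copies could share signal on an array, and this was not tested for the pair.

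LOC4348154 was the third gene whose change differed between the lines, by -0.86 (SE 0.17; limma, adjusted p = 0.0428). It stood at 6.88, 6.70 and 6.91 in DXC at 24 h, against 7.32, 7.52 and 7.47 at 0 h, and at 7.20, 7.28 and 7.36 in DX at 24 h, against 7.12, 7.02 and 6.95 at 0 h. The hours did not overlap in either line and moved in opposite directions. After quantile normalization neither the fall in DXC (adjusted p = 0.191) nor the difference between the lines (adjusted p = 0.581) was called. The difference between the lines was also lost with no block (adjusted p = 0.0564) and with any experiment left out (from 0.26 to 1).

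The other leading decreases without a name were those of LOC9271064 (-2.10), LOC4349331 (-2.06), LOC4331137 (-1.89), LOC4342139 (-1.79), LOC4337187 (-1.76) and LOC4324060 (-1.67; limma, adjusted p from 1.32e-05 to 0.0153). LOC9271064 was at 6.79, 6.36 and 7.30 in DXC at 24 h, against 8.99, 8.81 and 8.95 at 0 h. LOC4337187 was at 6.60, 6.34 and 7.37, against 8.37, 8.60 and 8.62. Both were also below DX at 24 h (by -1.67 and -1.22, adjusted p = 0.012 and 0.0118), and their difference between the lines had an adjusted p of 0.0505. LOC4349331, LOC4331137 and LOC4342139 were 1.34, 0.87 and 0.91 above DX at 0 h, without a call by limma (adjusted p from 0.113 to 0.296), and were not called against it at 24 h (adjusted p = 1 each).

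ACO1 encodes an ACC oxidase, which turns ACC into ethylene. It stood at 7.16, 7.18 and 7.65 in DXC at 24 h, against 8.81, 9.03 and 9.08 at 0 h, and at 8.74, 9.21 and 9.04 in DX at 24 h, against 8.54, 8.96 and 8.37 at 0 h. It was 3.12-fold lower in DXC (-1.64 log2 units, SE 0.34; limma, adjusted p = 0.00522), with all DXC arrays at 24 h below the other 9. The call was lost without experiment 1 or 2 (adjusted p = 0.198 and 0.194). DXC was below DX at 24 h by -1.67 (adjusted p = 0.0153), and the difference between the lines was -2.02 (adjusted p = 0.271). The mean of ACO1 in DXC was lowest at 12 h (6.07) and stood at 8.11 at 45 h. Around 24 h it did not climb evenly, with 7.82 at 21 h, 7.33 at 24 h and 7.27 at 27 h. Of 11 ethylene features, ETR2 (-0.71) was also lower and ETR4 (0.76) higher, both receptor genes (limma, adjusted p = 0.043 and 0.0442). With ACO1 this made 18.2% lower and 9.09% higher, against 3.77% and 0.71% of all features. Neither receptor gene was called after quantile normalization (limma, adjusted p = 0.0691 and 0.058) or with no block (0.101 and 0.0936). Both calls were also lost without experiment 1 or 2 and kept without experiment 3.

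BHLH170 and BHLH172 encode small bHLH proteins of the ILI group, which in rice promote leaf bending downstream of brassinosteroids. BHLH170 fell by 1.33 (SE 0.31; limma, adjusted p = 0.013, but 0.0879 with no block, and 0.213 and 0.312 without experiments 1 and 2) and BHLH172 fell by 1.16 (SE 0.25; adjusted p = 0.00581). BHLH172 stood at 3.70, 3.63 and 3.70 in DXC at 24 h, against 4.44, 4.65 and 5.41 at 0 h. Its 3 values at 24 h were nearly equal, but low, near the lower quartile of all features on those arrays (3.73, 3.78 and 3.63). Its levels in DX, 4.27, 5.02 and 4.71 at 24 h and 4.66, 4.27 and 4.28 at 0 h, overlapped.

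EXP4, an expansin gene, fell by 1.24, Os-UGD4, which encodes a UDP-glucose dehydrogenase that supplies wall sugars, by 1.24, and the BURP-domain gene BURP12 by 1.30 (limma, adjusted p from 0.0016 to 0.028). OsSAPK5, a SnRK2 protein kinase gene, fell by 1.28, PORA, which encodes a protochlorophyllide reductase, by 1.20, and the ribosomal protein gene rpl5 by 1.29 (adjusted p from 0.00302 to 0.029). In experiment 3 Os-UGD4 and rpl5 differed by only -0.28 and -0.30, and in experiment 1 by -1.20 and -1.38. None of these 6 genes was called for the difference between the lines (adjusted p from 0.527 to 0.661). With no block EXP4, Os-UGD4, PORA and rpl5 were not called by limma (adjusted p from 0.0659 to 0.112), nor was PORA after quantile normalization (0.0783). All 6 lost the call without experiment 1 or 2 (adjusted p from 0.108 to 0.612) and kept it without experiment 3.

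**Figure D3:**
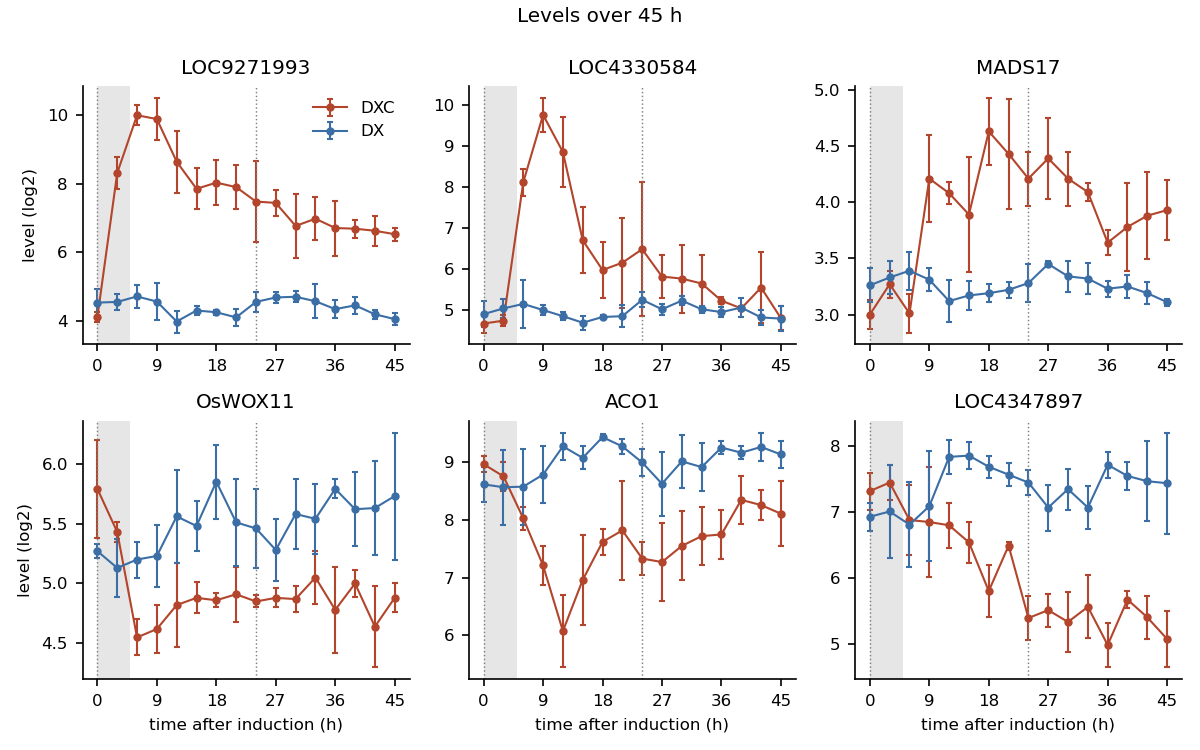
Mean level ± SD (log2, vertical axis, n = 3 experiments) of 6 genes in DXC and DX at each hour from 0 to 45 h (horizontal axis). Grey marks the 5 h with dexamethasone and dotted lines the 2 hours compared. LOC9271993 and LOC4330584 peaked at 6 and 9 h, MADS17 was raised from 9 h on, OsWOX11 was below its 0 h level from 6 h on, ACO1 was lowest at 12 h, and LOC4347897 was near its 24 h level from then to 45 h.

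The crown root list held 7 features, chosen as genes known to act in rice crown root formation, and 2 were called (limma, background 4.48%). OsWOX11, a homeobox gene of the WOX family with a role in crown root emergence and growth, fell. It stood at 4.81, 4.85 and 4.90 in DXC at 24 h, against 5.33, 5.92 and 6.11 at 0 h, and at 5.09, 5.68 and 5.63 in DX at 24 h, against 5.33, 5.24 and 5.23 at 0 h. The difference in DXC was -0.94 (SE 0.18, adjusted p = 0.00302, and 0.24 without experiment 2), and that between the lines was -1.14 (adjusted p = 0.165). DXC differed from DX by 0.52 at 0 h and by -0.61 at 24 h, neither with a call by limma (adjusted p = 0.2 and 0.343). All DXC arrays at 24 h lay below all the others, with an SD of 0.05 among them. By the hour, OsWOX11 in DXC was at 4.55 at 6 h and between 4.62 and 5.05 later, so the fall came before 24 h and lasted.

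The HD-ZIP gene hox14 rose by 0.84 (SE 0.26; limma, adjusted p = 0.047, but 0.0703 after quantile normalization, 0.0849 with no block and from 0.133 to 0.544 with an experiment left out). It stood at 3.93, 4.61 and 4.86 in DXC at 24 h, against 3.83, 3.62 and 3.44 at 0 h, with hardly a difference in experiment 1. The other 5 members were not called. QHB, the WUSCHEL-type gene of the root quiescent centre, stood at 4.87, 4.23 and 4.32 at 24 h, against 4.13, 3.84 and 4.10 at 0 h (0.45, adjusted p = 0.146). It had averaged 5.57 in DXC at 6 h. OsWOX10 differed by 0.34, OsRR2, a type-A response regulator gene, by -0.27, CKX4, which encodes a cytokinin oxidase, by -0.05, and IAA23 by -0.05 (adjusted p from 0.203 to 0.896). Without experiment 3, QHB (0.57, adjusted p = 0.043) and OsWOX10 (0.62, adjusted p = 0.0308) were called higher by limma, and OsWOX10 also without only its 24 h array (0.53, adjusted p = 0.0447).

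In the auxin pathway, Aux/IAA proteins repress auxin-responsive genes together with ARF transcription factors, GH3 enzymes conjugate auxin, and PIN proteins export it. Of 28 Aux/IAA features, 6 fell and none rose (21.4%, against 3.77% of all features lower): the IAA1 gene LOC4334069 (-0.97), IAA31 (-0.97), IAA30 (-0.86), IAA15 (-0.76), IAA24 (-0.71) and IAA12 (-0.70). A second gene that bears the name IAA1, LOC4323871, was at 0.05 (limma, adjusted p = 0.783). IAA15 stood at 5.88, 5.73 and 5.52 in DXC at 24 h, against 6.44, 6.45 and 6.53 at 0 h, and at 5.98, 6.05 and 6.00 in DX at 24 h, against 6.02, 6.02 and 6.08 at 0 h (limma, adjusted p = 0.00209). Its fall was largest in experiment 3. IAA31 was at 5.12, 5.65 and 5.57 in DXC at 24 h, against 6.30, 6.65 and 6.29 at 0 h, and all DX arrays lay between 6.07 and 6.46. After quantile normalization 4 of the 28 were called lower, 4 with no block and 9 without the 24 h array of experiment 3. LOC4334069, IAA31, IAA15 and IAA24 lost the call without experiment 1 or 2 (limma, adjusted p from 0.0653 to 0.272) and kept it without experiment 3. None of the 28 was called for the difference between the lines, with 9 at an unadjusted p under 0.05. Of the 28, 11 lay among the 9161 features of highest mean level. The list's median was -0.14, against -0.03 for all features and -0.00 for the list in DX.

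Among the other auxin lists, 0 of 19 ARF features and 0 of 8 auxin transport features were called by limma, with 6 and 1 at an unadjusted p under 0.05. Their lowest adjusted p was 0.107 (ARF10, -0.44) and 0.0763 (OSPIN10a, 0.46). GH3.1 was the only one of 10 GH3 and SAUR features called (background 0.71% higher), at 0.76 (limma, adjusted p = 0.0478, but 0.50 with an adjusted p of 0.132 without the 24 h array of experiment 3, and 0.0854 with no block). It stood at 6.03, 5.75 and 6.67 in DXC at 24 h against 5.47, 5.47 and 5.24 at 0 h. DX was at 6.03, 6.16 and 5.75 at 24 h, against 5.53, 6.04 and 5.34 at 0 h, so it moved the same way without a call. In the cytokinin lists, 0 of 9 type-A response regulators and 0 of 17 metabolism features were called, with 1 and 3 at an unadjusted p under 0.05 and CKX5 the nearest to a call (0.71, adjusted p = 0.0617). None of 13 gibberellin metabolism features was called by limma, with 3 at an unadjusted p under 0.05.

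In the lists of cell division and protein synthesis, calls were in the lower direction only (background 3.77% lower, with 19495 of all 36643 features below 0). Of 11 mitotic cyclin and CDKB features, 3 fell (27.3%) and 10 were below 0: CYCA3-1 (-0.85), CYCA2-1 (-0.72) and CDKB2-1 (-0.63; limma, adjusted p from 0.0128 to 0.0427). Of 30 DNA replication features, 3 fell, the origin recognition genes ORC6 (by 1.99-fold) and ORC3 (by 1.93-fold) and OsPCNA, the sliding clamp gene (by 1.70-fold). CYCD2-1 (-0.99) and CYCD4-1 (-0.54) were the 2 of 10 D-type cyclins that fell. H2B.9 (-0.59) was the 1 of 9 core histones. Of 23 cytosolic ribosomal protein features 5 fell and all 23 were below 0, with RPL18 (-1.03) and RPL3 (-0.71) among them.

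Many of these features belong to the highly expressed class that was lower as a whole at 24 h in experiments 1 and 2. Of the 23 ribosomal features, 20 lay among the 9161 of highest mean level, and their median was -0.50, -1.05 and -0.31 in experiments 1 to 3. The core histones had 7 of 9 features in that class and medians of -0.44, -0.96 and -0.06. In the mitotic list it was 5 of 11, with -0.16, -0.84 and -0.24. After quantile normalization 1 ribosomal, 1 mitotic, 1 replication, 0 histone and 0 D-type cyclin features were called, and with no block 0 of these 5 lists' features were. Without the 24 h array of experiment 3, 18 ribosomal, 4 mitotic, 8 replication, 5 histone and 3 D-type cyclin features were called lower, when 5192 of all features were. The part of array spread in these falls was not tested. None of these features was called for the difference between the lines.

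**Figure D4:**
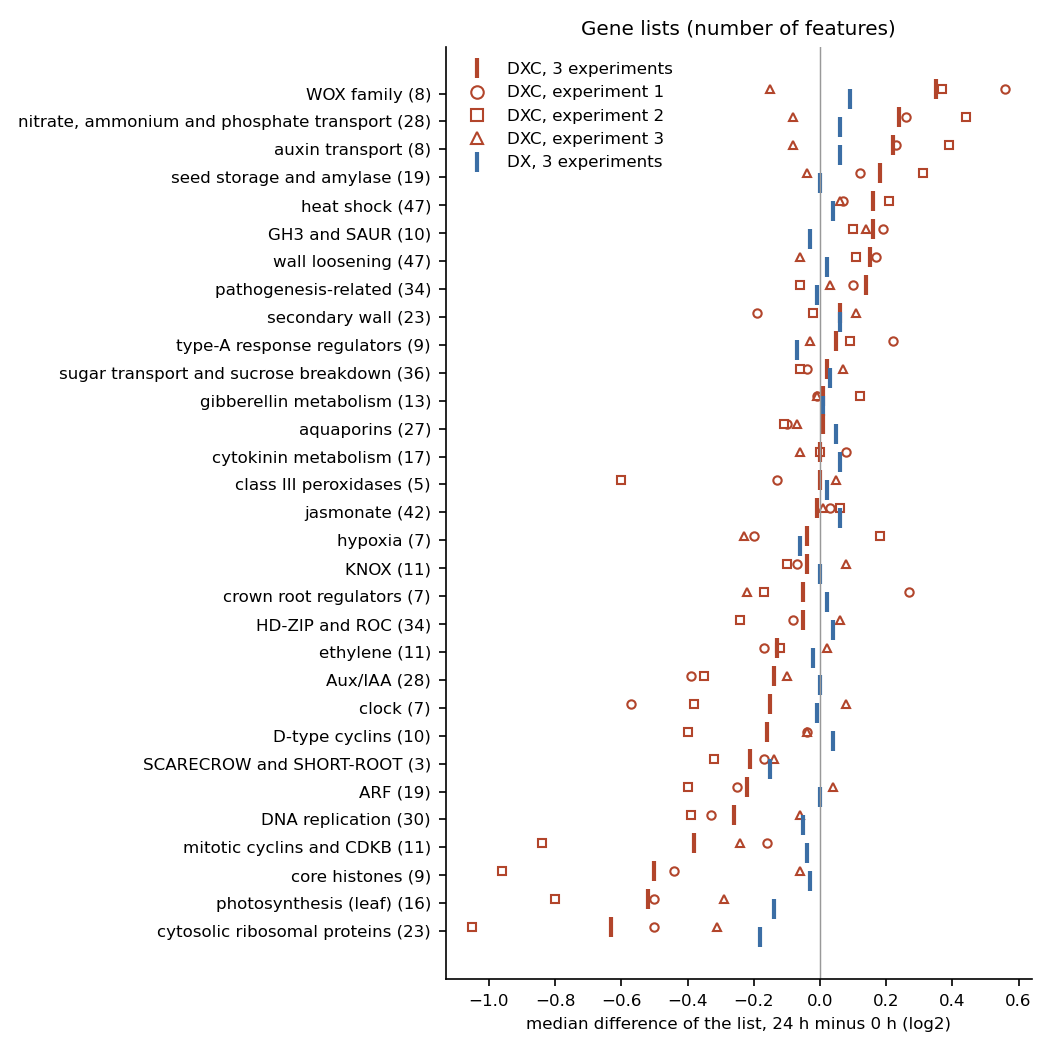
Median difference between 24 h and 0 h (log2, horizontal axis) of each of 31 gene lists (number of features in brackets) over the 3 experiments in DXC (red bar) and DX (blue bar), with open symbols for the experiments in DXC. Ribosomal proteins, photosynthesis and core histones lay lowest in DXC, with experiment 2 furthest from 0 and experiment 3 closest to it.

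Markers of other tissues gave the following. The 11 KNOX features, which mark the shoot meristem, had 0 calls by limma (3 at an unadjusted p under 0.05) and a median of -0.04. The 16 leaf photosynthesis features had 2 lower (12.5%, background 3.77%; 10 without the 24 h array of experiment 3), PORA and LHCP (-0.66), and a median of -0.52 in DXC against -0.14 in DX. Their experiments stood at -0.50, -0.80 and -0.29, and 11 of the 16 were in the highly expressed class. The 19 seed storage and amylase features had 0 calls by limma (2 at an unadjusted p under 0.05) and a median of 0.18. SCARECROW and SHORT-ROOT genes of the root had 0 calls among 3 features (1 at an unadjusted p under 0.05). The part of leaf tissue in the falls above was not tested.

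EXP6 (-1.02) and EXP4 were the 2 of 47 expansin and XTH features that fell, near the background of 3.77%. PRX112 (-0.92) and PRX74 fell among the 5 class III peroxidase features matched by name (40.0%, background 3.77%). The call of PRX112 (limma, adjusted p = 0.047) was lost after quantile normalization (0.0758), with no block (0.113) and with any experiment left out (from 0.0697 to 0.507). PRX112 stood at 4.29, 4.57 and 4.38 in DXC at 24 h, against 5.06, 5.48 and 5.45 at 0 h. Of 27 aquaporin features 4 fell (14.8%, background 3.77%), the plasma membrane channels OsPIP2;2 (described next), OsPIP2;5 (-0.95) and OsPIP2;1 (-0.76) and the vacuolar channel OsTIP1;1 (-0.62), and NIP4-1 rose (0.49), 1 of 27 against 0.71% of all features. OsPIP2;2 was at 5.40, 5.19 and 4.79 at 24 h, against 6.00, 6.41 and 5.97 at 0 h (SE 0.23; limma, adjusted p = 0.0128), and its fall was smallest in experiment 1. After quantile normalization 1 aquaporin feature was called lower. In sugar supply OsSUS4, a sucrose synthase gene, rose (0.60, but 0.33 with an adjusted p of 0.134 by limma without the 24 h array of experiment 3), while OsSUS1 (-0.78), the cell wall invertase gene CIN2 (-0.78) and the sugar transporter gene OsSWEET4 (-0.76) fell, 3 of 36 (8.33%). None of these 3 was called after quantile normalization.

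Of the homeobox HD-ZIP and ROC list, Hox21 (-0.85) and HOX5 (-0.70) fell and hox14 and Hox13 rose among 34 features (5.88% each way). Of all features, 3.77% were lower and 0.71% higher. Hox13 was at 0.73, and at 0.49 without the 24 h array of experiment 3 (limma, adjusted p = 0.108). Hox21 stood at 7.26, 7.34 and 7.13 in DXC at 24 h, against 8.21, 7.97 and 8.09 at 0 h, and at 7.74, 7.79 and 7.70 in DX at 24 h, against 7.92, 7.61 and 8.07 at 0 h (limma, adjusted p = 4.46e-04, but 0.168 after quantile normalization and 0.099 without experiment 1). Among 42 jasmonate features 1 fell (OsTIFY2a, -0.47, 2.38%), and among 34 pathogenesis-related ones OsTLP14 (-0.55) and NH4 (-0.45) fell (5.88%). Both shares lay near the 3.77% of all features that were lower. In the pathogenesis-related list Cht7 rose (2.94%, against 0.71% of all features higher). After quantile normalization OsTIFY2a, OsTLP14 and NH4 were not called by limma (adjusted p from 0.0656 to 0.177). Heat shock (47), hypoxia (7), clock (7), secondary wall (23) and nitrate, ammonium and phosphate transport (28) features had 0 calls each by limma, with 6, 2, 0, 6 and 5 at an unadjusted p under 0.05. In the hypoxia list NSHB2, a non-symbiotic haemoglobin gene, stood at 5.93, 6.34 and 7.39 in DXC at 24 h, against 8.52, 7.59 and 9.24 at 0 h, and at 5.89, 5.84 and 5.87 in DX at 24 h, against 6.67, 5.77 and 6.74 at 0 h. Its difference was not called (-1.90, SE 0.60; limma, adjusted p = 0.052), and its 0 h arrays in DXC were above all other arrays. The 7 clock features had a median of -0.15 in DXC and -0.01 in DX.

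What was left of the response that came after 3 h was asked with a list made from other arrays. A feature belonged to it when its step from 3 h to the mean of 6 and 9 h differed between DXC and DX (limma, adjusted p under 0.05). This gave 184 features (0.502%), 155 higher (0.423%) and 29 lower (0.0791%), and it used no array of 0 or 24 h. Genes already raised at 3 h can fall outside this list. LOC9271993, with means of 4.12 at 0 h and 8.31 at 3 h in DXC, was outside it (limma, adjusted p = 0.109 for the step). LOC4330827, with 3.94 and 6.25, was outside it as well. The 155 had a median step of 1.19 log2 units. One day after induction 36 of the 155 were higher in DXC than at 0 h and 0 were lower, against 0.71% and 3.77% of all features, and 127 were above 0. With the list and the calls remade with no block, 19 of 118 were higher, with only the arrays compared 0 of 57 by limma, and 27 of 166 without the 24 h array of experiment 3. Leaving out experiments 1, 2 and 3 gave 4 of 51, 3 of 60 and 15 of 79. Their median difference was 0.39 in DXC and -0.01 in DX, against -0.03 and -0.02 for all features. The difference between the lines had a median of 0.35 and was above 0 for 132, with 0 called by limma and 45 at an unadjusted p under 0.05.

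The residue differed between the experiments. The median of the 155 was 0.19, 0.14 and 0.73 in DXC in experiments 1 to 3, against 0.03, -0.01 and -0.00 in DX, so that experiment 3 held most of it. With the list remade without the 24 h array of experiment 3 (166 features), its median was 0.20. The median above the 0 h level in DXC was highest at 9 h (1.42), had dropped to 0.42 by 15 h and was 0.15 at 45 h. Between 21 and 45 h it declined further, with a median of -0.34 in the paired comparison. A wider list of 973 features with DXC at least 1 log2 unit above DX over 6 and 9 h had a median of -0.63 at 24 h minus 0 h (-0.57, -1.22 and 0.08 in experiments 1 to 3). The rule of that list required no step within the line (its median step was 0.32), and its median has the opposite sign to that of the 155. Of its 973 members, 35 were called higher and 56 lower, against 0.71% and 3.77% of all features.

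The 29 lower features behaved more evenly. Their median was -0.45 in DXC, with -0.38, -0.62 and -0.25 in experiments 1 to 3, against -0.06 in DX. Of the 29, 11 were called lower and 1 lay above 0, against 3.77% called lower and 17148 of 36643 above 0 for all features. LOC4348154 belongs to them, and was the 1 of the 29 called for the difference between the lines. The median was furthest from 0 at 9 h (-0.71) and was -0.46 at 45 h, close to its 24 h value.

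**Figure D5:**
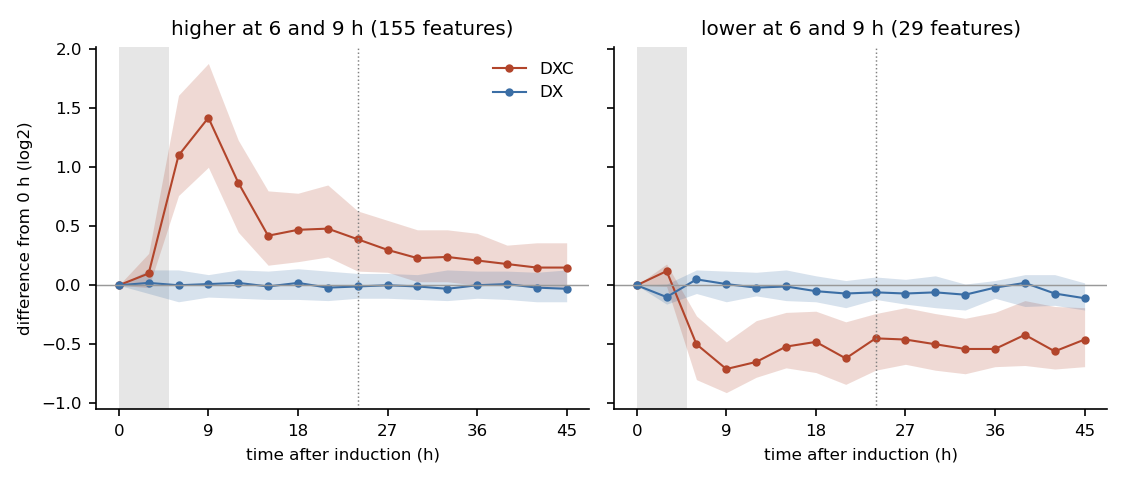
Median difference from 0 h (log2, vertical axis; shading, lower to upper quartile over features) at each hour (horizontal axis) in DXC and DX of the features that stepped up (left, 155) or down (right, 29) between 3 h and 6 to 9 h in DXC relative to DX. Grey marks the hours with dexamethasone and the dotted line 24 h. In DXC the left list stood at 1.42 at 9 h and 0.39 at 24 h, the right list at -0.71 and -0.45, and both stayed near 0 in DX.

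The 8 features with the largest step kept unequal amounts of it. LOC4330584 (step 4.19), LOC9268927 (3.09) and LOC4351404 (3.05) were called at 24 h, as described above, and so was LOC4344753, annotated as a long non-coding RNA, with 1.04 (limma, adjusted p = 0.0318). It stood at 5.83, 5.68 and 5.48 in DXC at 24 h, against 4.87, 4.26 and 4.72 at 0 h. LOC4336268, with a step of 2.96, was nearly back, at 3.51, 4.22 and 4.04 at 24 h against 3.42, 3.43 and 3.46 at 0 h (0.48, adjusted p = 0.176). LOC4327048 (0.83), LOC4327460 (0.60) and LOC4340119 (0.80) were not called (adjusted p from 0.0571 to 0.192), and LOC4327460 stood at 6.89 in experiment 3 against 5.11 and 4.73 in experiments 1 and 2.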

How the data were processed

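The series holds 96 Affymetrix arrays with 1 sample each (32 groups of line and hour, 3 each). The authors deposited log2 expression values that were already normalized; the submitters' processing notes name GCRMA, and its version is not given in the sources used here. Values ran from 1.82 to 12.92 with array medians from 4.62 to 4.76; no detection call stands behind them, and precision is set by having 3 arrays a group. Every column was matched to its sample, and no 2 arrays were copies (highest correlation 0.989).

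Of the features, 24161 had exactly 1 gene symbol in the platform annotation, while 90 had several and 12392 had none; synonyms, biotypes and gene order came from RefSeq genes of ASM3414082v1. All arrays were fitted with limma 3.58.1 (R 4.3.3; lmFit, eBayes with an intensity trend), with 32 groups and the experiment as a fixed block. P-values were adjusted by Benjamini-Hochberg over all features and called under 0.05. The pairing comes from the series' text, in which the numbers mark independent experiments. Deviations of same-numbered arrays at 24 h and 0 h correlated by 0.223, -0.219 and 0.056 in DXC and 0.531, 0.518 and 0.088 in DX. Those of differently numbered arrays ran from -0.354 to 0.309 in DXC and from -0.5 to 0.004 in DX. In DXC the same-numbered values thus lay within the range of the others. The fit was tested on simulated data.

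The comparison, the members and the gene lists were chosen with earlier results of these data known. Named genes were the 10 most changed each way among called features with 1 symbol and the same sign in 3 experiments, the same among genes with a name, up to 6 each way for the difference between lines, all crown root list members, up to 4 per other list with the lowest p, the 8 largest steps, and LOC9271993, LOC4330584 and ACO1. The other members of lists that are named were chosen after their values were seen. Alternatives changed the block, the arrays fitted, the normalization, the filter, the trend, and left out experiments. Promoter motifs were not analysed here.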

Additional observations from a re-analysis of the deposited data

Results flagged for a closer look

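The change over the day differed between DXC and DX, by limma's test of the difference itself, for 3 genes. LOC9271993 differed by 3.34 log2 units, LOC4347897 by -2.45 and LOC4348154 by -0.86.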

How the results depend on the processing

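Counts of features called in DXC between 24 h and 0 h were 223 with no replicate block, 0 with only the arrays compared (5686 at an unadjusted p under 0.05 by limma), 3168 with only the arrays of the line, 2959 with array sets as a random block, 531 after quantile normalization, 698 after centring and scaling each array, from 11 to 8768 with 1 experiment left out, and 7957 without the 24 h array of experiment 3, an alternative chosen after seeing the data. Of the main 1641, 223, 471 and 1576 were called again with no block, after quantile normalization and without that array. For the difference between the lines the count was 1 with no block, 0 with only the arrays compared (1777 at an unadjusted p under 0.05 by limma), 6 after quantile normalization, 5 after centring and scaling, 5 above the median level, 5 with no intensity trend and from 0 to 2 with 1 experiment left out. In DX it was 1 after centring and scaling. For 45 h against 21 h it was 1 with the random block, 5 after quantile normalization, 10 after centring and scaling, 1 above the median level, and from 0 to 1 with 1 experiment left out. With the list of features that stepped up remade in each setting, its median ran from 0.26 to 0.80 with 1 experiment left out (51 to 79 features). It was 0.20 without the 24 h array of experiment 3 (166 features). In the list of 973 features whose rule required no step the median was -0.63. Of 37 leading genes, 6, 5 and 30 stayed called without experiments 1, 2 and 3, 20 with no block and 32 after quantile normalization. Of the uncalled crown root genes, CKX4, IAA23 and OsRR2 changed sign in DXC, while QHB (0.30 to 0.57) and OsWOX10 (0.07 to 0.62) did not. With 1 experiment left out, CKX4 (LOC4326515) ran from -0.20 to 0.05 in DXC and from -0.34 to 0.06 for the difference between the lines, and IAA23 (LOC4341432) reached 0.01 and 0.04. Without the 24 h array of experiment 3, CKX4 was 0.06 and IAA23 -0.21. OsRR2 (LOC4329677) was 0.06 after quantile normalization. Of 78 named genes called in DXC, 49 lost the call with no block, and QHB and OsWOX10 gained one without experiment 3. The cause was not tested.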
